A study of Mus musculus with 16 samples.

Results

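The enzymes that make nicotinamide adenine dinucleotide (NAD) were followed in mouse kidney with and without ischemia reperfusion injury, in which the blood supply is stopped and restored. The set was chosen by gene symbol, as 10 enzymes of the routes to NAD: 6 of the de novo route (Afmid, Kmo, Kynu, Haao, Acmsd and Qprt), 2 of the Preiss-Handler route (Naprt and Nadsyn1) and 2 of the salvage routes (Nampt and Nmrk1). All 10 were among the 40472 genes of the count table, and all 10 were among the 13614 genes with enough counts to be tested. The data are poly(A)-selected RNA sequencing libraries of whole kidney from male C57BL/6 mice of 12 weeks, in 4 groups of 4 libraries. The uninjured groups received vehicle (NV) or PJ34 (NP), an inhibitor of poly(ADP-ribose) polymerases, which are enzymes that consume NAD. The injured groups had the ischemia reperfusion operation with vehicle (IRV) or with PJ34 (IRP). The labels give neither the dose of PJ34 nor the day of collection, and do not say that the replicates are separate animals, so p-values measure only the spread between these libraries.

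NAD carries electrons in metabolism and is the substrate that poly(ADP-ribose) polymerases, sirtuins and CD38 break down. In the de novo route tryptophan is opened to formylkynurenine, which AFMID, KMO, KYNU and HAAO convert step by step to an unstable intermediate, aminocarboxymuconate semialdehyde. That intermediate closes by itself to quinolinic acid, which QPRT commits to NAD, unless ACMSD first diverts it to breakdown. In the Preiss-Handler route NAPRT takes up nicotinic acid and NADSYN1 performs the last amidation, a step that the de novo route shares. In the salvage routes NAMPT recycles nicotinamide and NMRK1 phosphorylates nicotinamide riboside. The proximal tubule of the kidney holds the enzymes of the de novo route, and macrophages are also known to express Kmo and Kynu.

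Of the 10 enzymes, 8 had an entry in the RefSeq promoter table. The region ahead of Nampt is shown, as that of the main salvage enzyme, which was lower after injury. It is the 250 bases before the RefSeq start, in build GRCm38.p6, from chr12:32820085-32820334 (plus strand). Capitals mark the hexamer AGGTCA, which many nuclear receptors recognise.
Nampt: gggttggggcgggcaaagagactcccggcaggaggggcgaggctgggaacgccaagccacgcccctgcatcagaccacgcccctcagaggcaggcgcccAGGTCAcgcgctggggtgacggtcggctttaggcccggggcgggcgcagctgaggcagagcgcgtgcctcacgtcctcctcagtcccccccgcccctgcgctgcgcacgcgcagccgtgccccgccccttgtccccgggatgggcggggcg
The stretch was 75.6% G or C. The letters AGGTCA, searched on both strands, occurred in 14.0% of all 32851 promoter stretches of the same length. The letters GTTAAT, which the HNF1 factors recognise and which were searched in the same way, did not occur in it and occurred in 6.43% of all stretches. Among the 8 enzymes with an entry, AGGTCA also occurred ahead of Acmsd and Haao. It did not occur ahead of Kmo and Nmrk1, which were lower after injury too, nor ahead of Afmid, Nadsyn1 and Qprt. These matches describe the sequence only, and a link with the changes after injury was not tested.

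Total counts fell into separate ranges. The 6 deep libraries (every IRP library, IRV replicate 3 and IRV replicate 4) had totals of 4963638 to 6169748 counts, and the 10 shallow ones had totals of 973812 to 1659983. The make-up differed as well, since 12 abundant unnamed gene models took 4.085 to 5.533% of the counts in deep libraries and 18.1 to 27.5% in shallow ones. IRP and NP therefore share no depth range, and depth and injury cannot be told apart in that comparison except through IRV. Within groups, none of the 24 library pairs agreed to within counting noise. Levels below are CPM, the counts of a gene scaled to a common total over the tested genes after TMM scaling, a correction for make-up. Changes are log2 ratios with their standard error from 1 edgeR quasi-likelihood fit over all 16 libraries, and a gene was called at an adjusted p under 0.05.

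After injury most of the enzymes were lower, with or without PJ34. In IRV against NV, 6 of the 10 were called lower and 0 higher, where 11.1% of all tested genes were called lower and 15.9% higher. In IRP against NP, again 6 were called lower and 0 higher, where 24% of all tested genes were called lower and 19.6% higher. The 6 genes were the same in both comparisons: Kmo, Kynu, Haao and Acmsd of the de novo route, and Nampt and Nmrk1 of salvage. The median change of the 10 was -0.75 in IRV against NV and -0.67 in IRP against NP, beside -0.03 and -0.01 over all tested genes. The set was chosen with earlier results of these data known, so setting it beside all genes is not an independent test. These counts depend on scaling: when libraries were scaled by their totals alone, 1 enzyme (Acmsd) was called in IRV against NV and 0 in IRP against NP, while the median of all genes moved to 0.49 and 0.57. In the main fit 10 of the 10 enzymes lay below the median of all genes in IRV against NV and 9 in IRP against NP. Under totals alone these numbers were again 10 and 9. The median of the enzymes minus that of all genes was -0.72 and -0.66 in the main fit, and -0.72 and -0.69 under totals alone. Without the filter on low counts the calls were also 1 (Acmsd) and 0. The medians of all genes were then -0.32 and -1.08, and 7 and 0 of the 10 enzymes lay below them.

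Depth also touched the calls. With the depth range as a term in the fit, 4 enzymes were called lower in IRV against NV (Kmo, Acmsd, Nampt and Nmrk1) and 0 in IRP against NP. The values in IRP against NP were then -1.14 for Kmo, -1.07 for Nmrk1, -1.005 for Nampt, -0.59 for Kynu, -0.48 for Haao and -0.30 for Acmsd, at edgeR adjusted p from 0.0503 for Kmo to 0.76 for Acmsd. Within the shallow libraries alone, which hold IRV replicates 1 and 2 and all NV libraries, 5 were called lower in IRV against NV: Kmo at -1.23, Acmsd at -1.03, Nmrk1 at -0.97, Nampt at -0.89 and Haao at -0.58. Kynu was at -1.10 there and was not called (edgeR adjusted p = 0.17). The shares of all genes called lower in these fits are not given here. Among 14 marker genes of the proximal tubule, the calls in IRP against NP also dropped, from 12 to 2, with the depth range in the fit. The 0 enzymes called there are therefore not shown to be particular to this set.

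**Figure D1:**
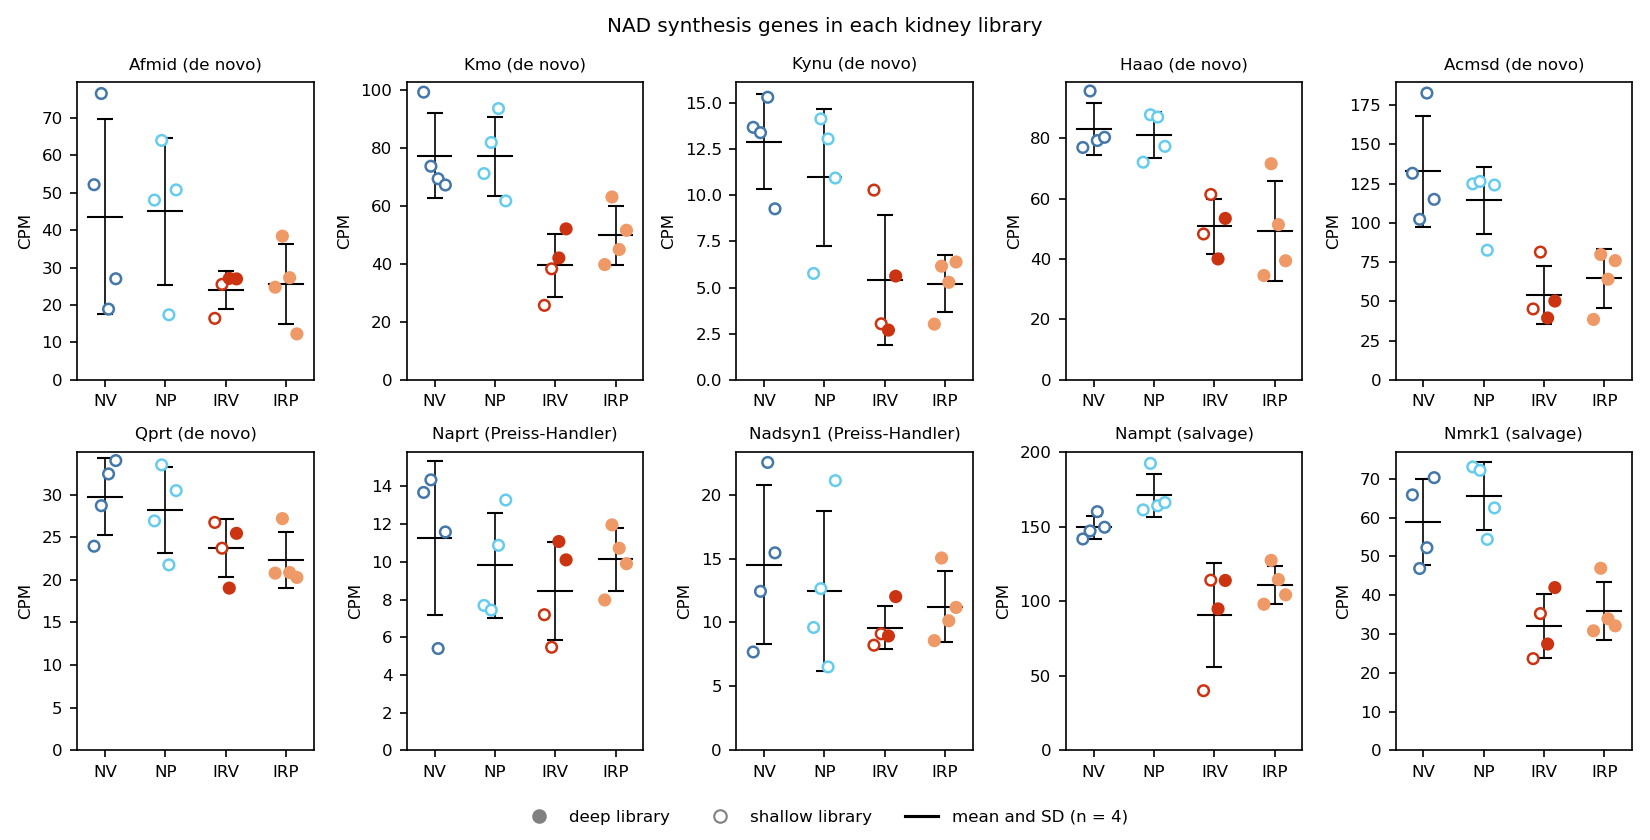
Level of each enzyme in each of the 16 libraries, in CPM on the vertical axis, with 1 panel per gene, 1 point per library (open for shallow libraries) and the group mean and SD. The injured libraries of Haao, Acmsd, Nampt and Nmrk1 lie below the uninjured ones of the same treatment, while those of Qprt, Naprt and Nadsyn1 overlap them.

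Per kilobase of the longest coding transcript, Haao, which makes the branch-point intermediate, was the most abundant enzyme in NV at 60.1 ± 6.17 CPM per kb (SD, n = 4). Acmsd followed at 48.9 ± 13.0 CPM per kb, a difference within the spread of Acmsd. Before division by length, Nampt at 149.8 ± 7.70 CPM and Acmsd at 133.0 ± 35.3 CPM stood above Haao at 83.0 ± 8.52 CPM. The expressed isoform was not determined, so the order per kilobase rests on the length taken. Nampt at 33.1 ± 1.70 and Nmrk1 at 30.3 ± 5.70 CPM per kb overlapped, and Nmrk1 overlapped Kmo at 21.1 ± 4.03. Afmid at 18.8 ± 11.2 CPM per kb overlapped Kmo and also Qprt, which stood at 14.5 ± 2.18. Naprt at 5.93 ± 2.15, Nadsyn1 at 5.50 ± 2.35 and Kynu at 4.65 ± 0.926 CPM per kb were the least abundant and did not differ beyond their spread. In IRV, Haao was still highest at 36.8 ± 6.49 CPM per kb and Kynu lowest at 1.95 ± 1.26. Acmsd, at 19.9 ± 6.90, was then level with Nampt at 20.1 ± 7.74 CPM per kb. Qprt, at 11.6 ± 1.64, was within the spread of Kmo at 10.8 ± 2.97 CPM per kb.

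Among the de novo enzymes in the set, AFMID, the formamidase that releases kynurenine, acts earliest. Afmid (ENSMUSG00000017718) measured 52.1, 76.5, 18.9 and 27.0 CPM in NV replicates 1 to 4 and 16.4, 25.5, 27.1 and 27.0 CPM in IRV. It measured 48.0, 64.0, 17.4 and 50.8 CPM in NP and 24.8, 38.4, 27.3 and 12.3 CPM in IRP. The uninjured libraries ranged widely and overlapped the injured ones in both comparisons. The change was -0.79 ± 0.41 in IRV against NV (adjusted p = 0.16) and -0.84 ± 0.39 in IRP against NP (adjusted p = 0.090), so neither was called.

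KMO, the mitochondrial hydroxylase that turns kynurenine towards NAD, was called lower in both. Kmo (ENSMUSG00000039783) was at 99.2, 73.6, 69.3 and 67.2 CPM in NV and 25.7, 38.3, 42.0 and 52.0 CPM in IRV. The NP libraries held 71.1, 81.8, 93.5 and 61.7 CPM and the IRP libraries 39.8, 63.0, 44.9 and 51.6 CPM. Every IRV library lay below every NV library, while IRP replicate 2 lay just above NP replicate 4. Kmo fell by 0.91 ± 0.20 in IRV against NV (adjusted p = 0.0029), which is 46.6% lower, and by 0.63 ± 0.19 in IRP against NP (adjusted p = 0.014).

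KYNU, which cleaves hydroxykynurenine, was the least abundant of the de novo enzymes in the set. Kynu (ENSMUSG00000026866) measured 13.7, 13.4, 15.3 and 9.27 CPM in NV and 10.3, 3.04, 2.70 and 5.63 CPM in IRV, so that IRV replicate 1 reached into the NV range. It measured 5.77, 14.1, 13.0 and 10.9 CPM in NP and 3.02, 6.16, 5.29 and 6.39 CPM in IRP, with NP replicate 1 inside the IRP range. These values rest on 12 to 17 counts per library in NV and 6 to 19 in NP. Kynu fell by 1.40 ± 0.41 in IRV against NV (adjusted p = 0.018) and by 1.08 ± 0.39 in IRP against NP (adjusted p = 0.032). The calls were lost without IRV replicate 3 (adjusted p = 0.062) and without any of IRP replicate 1, IRP replicate 3, NP replicate 2 and NP replicate 3 (adjusted p of 0.094, 0.051, 0.11 and 0.061).

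HAAO, the dioxygenase that makes the branch-point intermediate, was lower in every injured library than in any uninjured library of the same treatment. Haao (ENSMUSG00000000673) was at 76.9, 95.6, 79.2 and 80.3 CPM in NV and 48.3, 61.4, 40.04 and 53.5 CPM in IRV. It was at 72.1, 87.8, 87.0 and 77.3 CPM in NP and 34.6, 71.6, 51.4 and 39.4 CPM in IRP, where IRP replicate 2 nearly touched NP replicate 1. The fall was alike in the comparisons, at -0.72 ± 0.20 in IRV against NV (adjusted p = 0.012) and -0.72 ± 0.19 in IRP against NP (adjusted p = 0.0059).

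ACMSD and QPRT act at the branch point, and Acmsd had the lower p of the pair in both comparisons. Acmsd (ENSMUSG00000026348), the decarboxylase that diverts the intermediate away from NAD, measured 131.7, 102.3, 182.8 and 115.1 CPM in NV and 45.2, 81.4, 39.5 and 50.3 CPM in IRV. In NP it measured 124.9, 126.5, 82.6 and 124.2 CPM and in IRP 38.5, 79.9, 64.2 and 76.0 CPM. The groups did not overlap in either comparison, though IRP replicate 2 and NP replicate 3 were close. Acmsd fell by 1.32 ± 0.26 in IRV against NV (adjusted p = 0.0013), which left 40.1% of the NV level, and by 0.83 ± 0.25 in IRP against NP (adjusted p = 0.012), which left 56.1%. It was called in all 19 settings tried for IRV against NV, with values from -1.64 to -0.83, and in 15 of 18 for IRP against NP, with values from -1.04 to -0.28.

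Qprt (ENSMUSG00000030674), the transferase that commits quinolinic acid to NAD, was at 23.9, 28.7, 32.4 and 33.98 CPM in NV and 26.7, 23.7, 19.0 and 25.4 CPM in IRV. It was at 26.9, 33.5, 21.7 and 30.5 CPM in NP and 20.8, 27.2, 20.9 and 20.3 CPM in IRP. The groups overlapped in both comparisons. The change of Qprt was -0.36 ± 0.17 in IRV against NV (adjusted p = 0.13) and -0.36 ± 0.16 in IRP against NP (adjusted p = 0.086), neither of them called. The difference between the changes of Acmsd and Qprt was not tested.

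The Preiss-Handler enzymes were not called in either comparison. Naprt (ENSMUSG00000022574), the nicotinic acid transferase, ranged from 5.402 to 14.3 CPM in NV, 5.47 to 11.1 in IRV, 7.44 to 13.3 in NP and 7.97 to 12.0 in IRP. Its change was -0.32 ± 0.30 in IRV against NV (adjusted p = 0.44) and 0.04 ± 0.30 in IRP against NP (adjusted p = 0.93). Nadsyn1 (ENSMUSG00000031090), the NAD synthetase, ranged from 7.69 to 22.5 CPM in NV, 8.22 to 12.0 in IRV, 6.52 to 21.1 in NP and 8.58 to 15.0 in IRP. Its change was -0.56 ± 0.33 (adjusted p = 0.22) and -0.19 ± 0.32 (adjusted p = 0.66). Counts were low in shallow libraries, with 6 to 16 for Naprt in NV and 9 to 25 for Nadsyn1. The 95% intervals in IRP against NP, -0.58 to 0.67 for Naprt and -0.87 to 0.48 for Nadsyn1, reach to falls near that of Kmo.

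Both salvage enzymes were lower after injury. Nampt (ENSMUSG00000020572), the enzyme that sets the pace of nicotinamide recycling, was at 141.9, 147.3, 160.3 and 149.8 CPM in NV and 40.1, 114.3, 94.997 and 114.1 CPM in IRV. It was at 161.4, 192.7, 164.2 and 166.3 CPM in NP and 98.1, 127.5, 114.7 and 104.4 CPM in IRP. The groups did not overlap, and IRV replicate 1 stood far below the other IRV libraries. Nampt fell by 0.69 ± 0.21 in IRV against NV (adjusted p = 0.020) and by 0.62 ± 0.20 in IRP against NP (adjusted p = 0.018). The second call was lost without IRP replicate 1 (-0.55, adjusted p = 0.061) and without NP replicate 2 (-0.55, adjusted p = 0.059).

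Nmrk1 (ENSMUSG00000037847), the nicotinamide riboside kinase, was at 65.8, 46.9, 52.2 and 70.3 CPM in NV and 23.6, 35.3, 27.4 and 41.9 CPM in IRV. It was at 73.0, 72.2, 54.4 and 62.5 CPM in NP and 30.8, 46.9, 33.9 and 32.1 CPM in IRP. Every injured library lay below every uninjured library of its treatment. Nmrk1 fell by 0.84 ± 0.19 in IRV against NV (adjusted p = 0.0039) and by 0.87 ± 0.18 in IRP against NP (adjusted p = 0.0013), to 55.8% and 54.6% of the uninjured level. Over the whole set, the injured libraries lay wholly below the uninjured ones for 5 enzymes in IRV against NV and for 4 in IRP against NP. The share of all tested genes separated in this way was not counted, so these numbers show nothing particular to the enzymes.

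**Figure D2:**
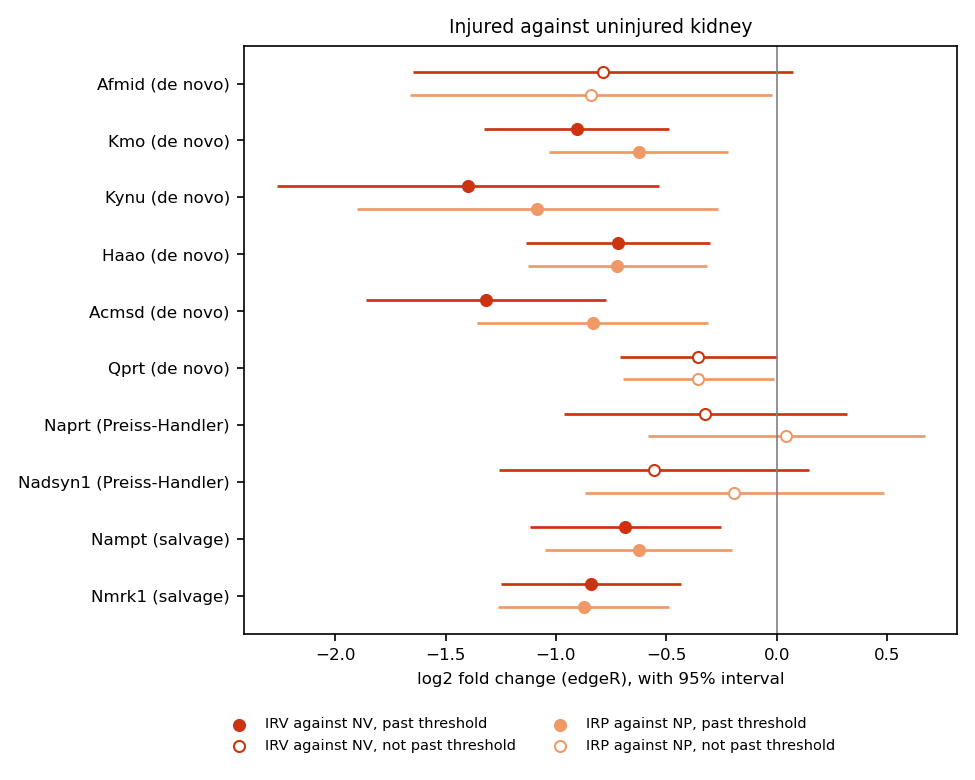
Log2 change of each enzyme with its 95% interval in IRV against NV and in IRP against NP, ordered by route. The 6 called enzymes lie at or below -0.62 in both comparisons, and Naprt in IRP against NP sits at 0.04.

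PJ34 gave no called change in any of the 10 enzymes. Among injured kidneys, IRP against IRV, 0% of all tested genes were called by edgeR, with 1832 of 13614 genes at an unadjusted p under 0.05 and 0 of the 10 enzymes among them. DESeq2 called 1282 genes there, none of them among the 10, and limma-voom called 0. All IRP libraries were deep while IRV replicates 1 and 2 were shallow, so PJ34 and depth are partly confounded in this comparison. The libraries of IRP and IRV overlapped for all 10 enzymes. Acmsd differed by 0.28, with a 95% interval of -0.25 to 0.80, Kmo by 0.27 (-0.13 to 0.66) and Nampt by 0.25 (-0.16 to 0.67). The closest to 0 were Afmid at 0.03 (-0.76 to 0.82), Haao at -0.04 (-0.43 to 0.36) and Qprt at -0.07 (-0.38 to 0.25). These intervals leave room for differences in either direction, so equal levels were not shown.

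Among uninjured kidneys, NP against NV, 0% of all genes were called by edgeR, with 501 at an unadjusted p under 0.05 and none of the enzymes among them. DESeq2 called 4 genes and limma-voom 0, with none of the 10 among them. Nampt was the 1 enzyme whose libraries did not overlap, at 161.4 to 192.7 CPM in NP and 141.9 to 160.3 CPM in NV, a difference of 0.19 with an interval of -0.24 to 0.63. The share of all tested genes without overlap was not counted here either. Nmrk1, the other salvage enzyme, differed by 0.15 (-0.25 to 0.56), and Kynu by -0.22 (-1.08 to 0.63).

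The interaction, the injury change with PJ34 minus that with vehicle, was called for 0% of all genes by edgeR, with 1550 at an unadjusted p under 0.05 and no enzyme among them. DESeq2 called 22 genes and limma-voom 0, again with none of the 10. Depth is partly confounded with this contrast as well. Acmsd gave 0.48 with an interval of -0.27 to 1.23 (edgeR adjusted p = 0.71). Haao gave -0.0046 (-0.58 to 0.57), Nmrk1 -0.03 (-0.59 to 0.53) and Nampt 0.06 (-0.54 to 0.66). The smaller fall of Acmsd in PJ34-treated kidneys was thus within the error of the data.

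**Figure D3:**
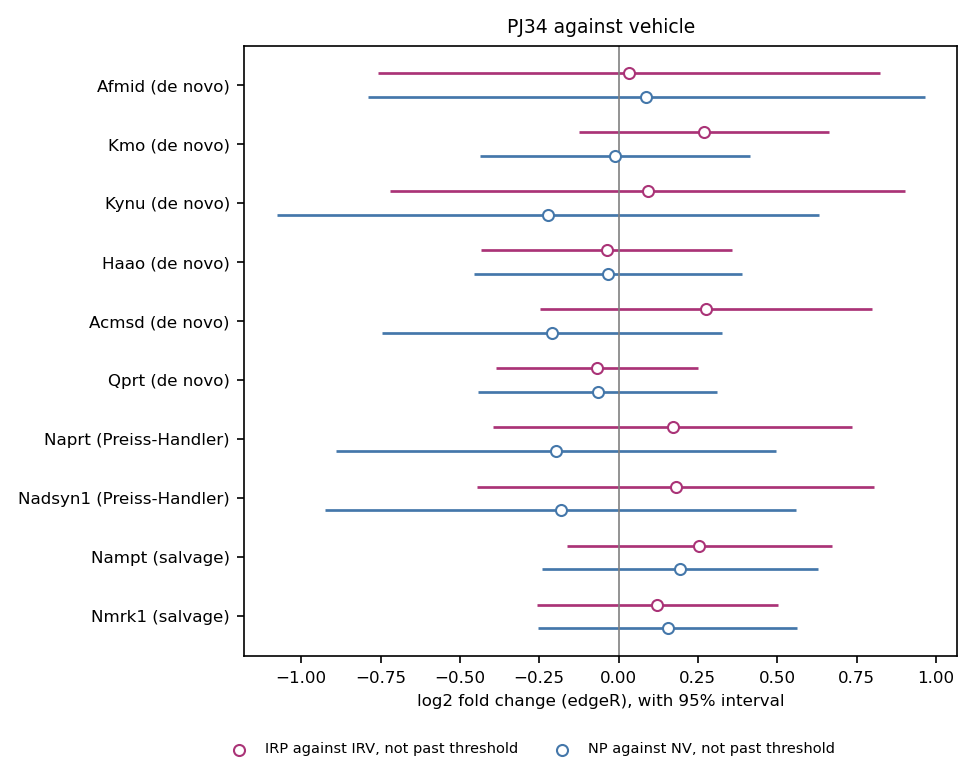
Log2 difference with its 95% interval for each enzyme in IRP against IRV and in NP against NV. Every interval includes 0.

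The kidneys differed in cell markers as well. The 14 proximal tubule markers, among them the phosphate transporter Slc34a1 and the endocytic receptor Lrp2, were detected in every group. Of these, 13 were called lower in IRV against NV, at a median of -0.99, and 12 in IRP against NP, at a median of -0.81. With the depth range in the fit these counts were 13 and 2, and with scaling by totals alone 5 and 2. Their summed level was 14150 to 16066 CPM in NV, 13965 to 17590 in NP, 5736 to 9092 in IRV and 6187 to 12840 in IRP, and none was at 0. In whole kidney, fewer tubule cells and less RNA per tubule cell cannot be told apart. The 12 macrophage markers, among them Adgre1 and C1qa, were all called higher in both comparisons, with sums of 92.8 to 126.5 CPM in NV, 91.5 to 164.2 in NP, 660.7 to 1115 in IRV and 481.9 to 1308 in IRP. Kmo and Kynu, which macrophages also express, were lower while those markers were higher, and the part of either cell type in the changes was not tested. Podocyte markers were called higher for 6 of 6 in both comparisons, at medians of 0.92 and 0.89. Fibroblast markers were called higher for 7 of 9 in both, at medians of 1.98 and 1.88, with sums of 192.2 to 390.7 CPM in NV, 304.2 to 427.3 in NP, 1377 to 2151 in IRV and 980.7 to 2548 in IRP. Loop and distal tubule markers were called lower for 3 of 7 in both, at medians of -0.42 and 0.096. Of 8 collecting duct markers, 0 were called in IRV against NV and 1 was called higher in IRP against NP. Endothelial markers were called higher for 3 and 2 of 7. Of 3 tested lymphocyte markers 1 was called higher in each, and 1 lower in IRP against NP. Over all tested genes 15.9% and 19.6% were called higher, and 11.1% and 24% lower. Other settings are given here for the proximal tubule list only.

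Each enzyme was then set against the mean log2 level of the 14 tubule markers in the same library, which was 1.03 lower in IRV than in NV and 0.82 lower in IRP than in NP. Of 20 such differences, tested by exact two-sided permutation over 70 assignments with a smallest possible p of 0.0286, none passed after adjustment. With 20 tests and that smallest p, most of the 20 would have had to reach it for any to pass, so this outcome says little about stability or equality. Acmsd moved by -0.28 relative to the markers in IRV against NV (exact permutation p = 0.31) and by -0.03 in IRP against NP (exact permutation p = 0.89). Kmo moved by 0.05 and 0.20, Nmrk1 by 0.15 and -0.04, and Nampt by 0.20 and 0.20. Against the markers, every injured library of Qprt lay above every uninjured one of the same treatment, by 0.71 and 0.50 on average, each at the smallest possible exact permutation p of 0.0286 (0.19 after adjustment over the 20). Naprt did so in IRP against NP, by 0.89 (exact permutation p = 0.0286, adjusted 0.19).

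**Figure D4:**
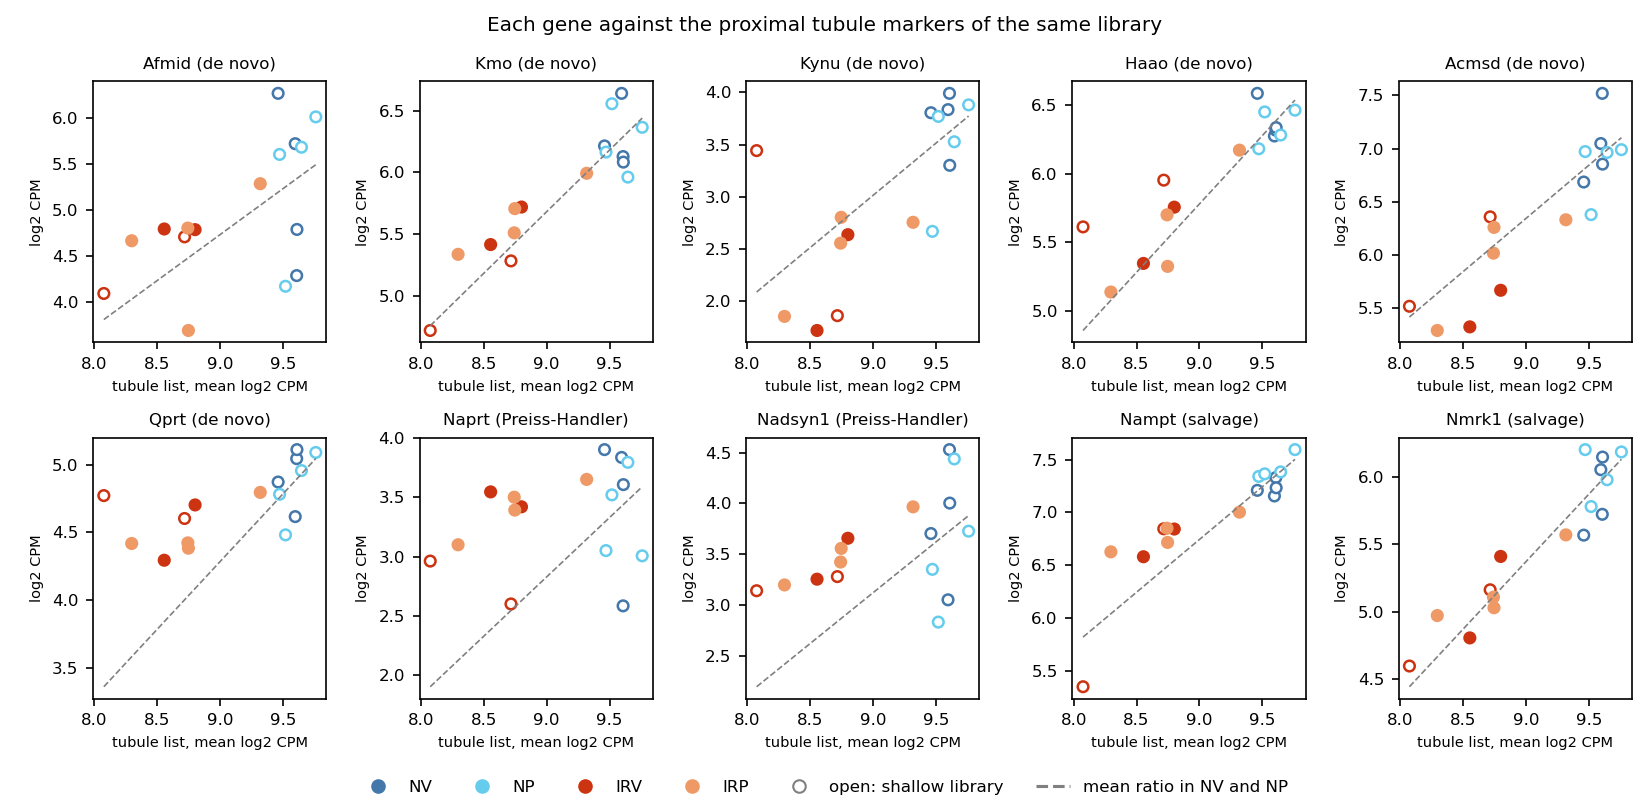
Log2 CPM of each enzyme (vertical axis) against the mean log2 CPM of the 14 proximal tubule markers (horizontal axis), with 1 point per library, open points for shallow libraries, and a dashed line at the mean ratio of the uninjured libraries. Injured points of Acmsd and Nmrk1 fall on both sides of the line, while all injured points of Qprt lie above it.

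In IRP the same libraries were high or low for many enzymes at once. IRP replicate 2 was the highest of its group for 9 of the 10 enzymes and IRP replicate 1 the lowest for 8. In NV no library was highest or lowest for more than 4 enzymes, in IRV none was highest for more than 3 or lowest for more than 5, and in NP none was highest for more than 6 or lowest for more than 5. In the tubule markers IRP replicate 2 was likewise highest of its group, at a mean log2 level of 9.32, and IRP replicate 1 lowest at 8.30, beside 8.74 and 8.75 in the others. Without IRP replicate 1 the number of enzymes called lower in IRP against NP dropped to 3 (Haao, Acmsd and Nmrk1), and without IRP replicate 2 it was 8. The shares of all genes called lower in those fits are not given here. The drop and the rise are therefore not shown to be particular to the enzymes.

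Of 31 further genes of NAD metabolism, 24 could be tested, and in each injury comparison 9 of them were called lower and 1 higher, at medians of -0.47 and -0.48. Over all tested genes the shares called lower were 11.1% in IRV against NV and 24% in IRP against NP. Scaled by library totals alone, the counts were 2 lower and 4 higher in IRV against NV and 2 lower and 5 higher in IRP against NP. With the depth range in the fit they were 6 lower and 0 higher, and 1 lower and 0 higher. In the side branch that turns kynurenine to kynurenic acid, 3 of 4 transaminases were called lower in IRV against NV and 4 of 4 in IRP against NP. Aadat, a main kynurenine transaminase, went from 121.3 ± 9.37 CPM in NV to 49.2 ± 12.7 in IRV (SD, n = 4) and from 138.4 ± 40.04 in NP to 54.3 ± 28.8 in IRP. The changes of Aadat were -1.26 (adjusted p = 0.0044) and -1.36 (adjusted p = 0.0012). Kyat3, another transaminase, fell by 1.38 and 1.32, and Got2, a mitochondrial aminotransferase that also acts on kynurenine, by 0.54 and 0.52. Scaled by totals alone, Aadat and Kyat3 were still called lower in both comparisons, while Got2 was at -0.033 (adjusted p = 0.88) and 0.044 (adjusted p = 0.83).

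At the entry of the route, Tdo2, the tryptophan dioxygenase, did not pass the filter on low counts, at 3 to 7 counts per library in NV, 4 to 8 in NP, 0 to 3 in IRV and 0 to 4 in IRP. In the fit without that filter Tdo2 was called lower, at -3.19 (adjusted p = 0.044) and -3.42 (adjusted p = 0.0050). The median of all genes was itself at -0.32 and -1.08 in that fit. Tdo2 was not in the fit with the depth range, although all NV and NP libraries are shallow and all IRP libraries deep. Depth and injury are thus not separated for Tdo2 in IRP against NP. In IRV against NV they are partly confounded, since IRV replicates 1 and 2 are shallow like all NV libraries. There Tdo2 ranged from 0 to 2.06 CPM in IRV and from 2.70 to 6.69 CPM in NV, on the few counts given above. Ido2, a related dioxygenase, was at -1.16 (adjusted p = 0.065) and -0.56 (adjusted p = 0.33), neither called. In IRV against NV limma-voom called Ido2 lower (adjusted p = 0.033). Of the adenylyl transferases, which complete NAD or its acid form, Nmnat1 of the nucleus fell by 0.76 in IRV against NV (adjusted p = 0.035) and by 0.83 in IRP against NP (adjusted p = 0.0096). With the depth range in the fit Nmnat1 was at -0.44 (adjusted p = 0.42) and -0.31 (adjusted p = 0.75), and scaled by totals alone at -0.23 and -0.26, not called. Nadk2, the mitochondrial NAD kinase, fell by 0.77 and 0.53. Nnt, the mitochondrial transhydrogenase, fell by 0.99 in IRV against NV (adjusted p = 0.032) and was at -0.57 in IRP against NP (adjusted p = 0.17), where 2 gene identifiers share the symbol and the more abundant was used. The uninjured libraries of Nnt spread widely, from 51.7 to 176.1 CPM in NV and 53.9 to 158.8 in NP. They overlapped the injured ones, at 52.3 to 80.3 CPM in IRV and 51.6 to 81.5 in IRP. Among enzymes that break NAD down, Cd38, an NAD glycohydrolase of immune cells, rose from 5.24 ± 1.41 CPM in NV to 11.2 ± 0.851 in IRV (SD, n = 4), a change of 1.09 (adjusted p = 0.026). In IRP against NP Cd38 rose by 1.11 (adjusted p = 0.015). Cd38 was called in neither comparison with the depth range in the fit (1.10, adjusted p = 0.11, and 1.11, adjusted p = 0.28), nor by limma-voom (adjusted p = 0.15 and 0.20). Nudt12, which hydrolyses NADH, fell by 0.62 and 0.70. Of the regulators, Hnf4a, a nuclear receptor of the proximal tubule, fell by 0.89 (adjusted p = 0.00057) and 0.67 (adjusted p = 0.0025), and Ppargc1a, a coactivator of mitochondrial genes, by 0.36 (adjusted p = 0.0497) and 0.41 (adjusted p = 0.015). Ppargc1a was at 0.15 and 0.16 when libraries were scaled by totals alone, and was not called with the depth range in the fit (adjusted p = 0.11 and 0.22). Scaling by totals alone also ended the calls of Hnf4a (-0.38 and -0.10), Nadk2 (-0.25 and 0.028), Nudt12 (-0.10 and -0.15) and Nnt (-0.46 in IRV against NV). With the depth range in the fit the called genes of these 24 were Aadat, Kyat3, Got2, Nadk2, Nudt12 and Hnf4a in IRV against NV, and Hnf4a in IRP against NP.

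The genes whose profile over the 16 libraries lay nearest to each enzyme were taken from 13584 tested genes, by the root mean square difference of centred log2 levels. For Acmsd they were Uqcrq and Atp5g1, both of mitochondrial respiration, and Kl, the kidney protein Klotho, at distances of 0.19 to 0.22 where the median gene was at 0.79. Haao lay nearest to Agxt2, a mitochondrial aminotransferase, at 0.12, followed by Chpt1 and Mogat1. Kmo lay nearest to Emc6 at 0.14, then to Aldh2 and Cox4i1. Nampt lay nearest to Khk, the fructose kinase, at 0.14, then to Fh1, and Nmrk1 to Asl, an enzyme of arginine synthesis, at 0.14, then to Enpp2 and Ndufs8. Qprt lay nearest to Abhd17c at 0.11, then to Mtus1 and Pnpla8. The less abundant or more variable enzymes had no close neighbour: the nearest gene was at 0.44 for Afmid (Nat8), 0.38 for Kynu (Slc35f1), 0.26 for Nadsyn1 (Slc1a4) and 0.24 for Naprt (Nt5c). Members of the same set were absent from all 10 of these short lists of 3 genes. With only 3 of 13584 genes in each list, absence was likely in any case and does not show whether the enzymes vary together.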

How the data were processed

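Per the submitters' processing notes, the authors used Salmon 1.3.0 with build GRCm39, beside DESeq2 1.30.1, FastQC 0.11.3 and Trim Galore 0.6.6. The deposited values are expected counts, whole and without normalisation. Salmon shares reads among similar transcripts, and the use of molecular identifiers in counting is not given here. Symbols were matched by Ensembl ID for 40276 of 40472 genes. Transcript lengths came from an older mouse annotation (GENCODE, GRCm38), and no coordinates of the count table are given.

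Genes were kept with filterByExpr at a minimum count of 10 (13614 genes), scaled by TMM and tested in R 4.3.3 with edgeR 4.0.16 (glmQLFit and glmQLFTest), with group as the only term over 16 libraries. Adjusted p-values are Benjamini-Hochberg values over all tested genes, at a threshold of 0.05. DESeq2 1.42.0 and limma 3.58.1 (voom) were alternatives, beside other scalings, no filter, the depth range as a covariate, subsets of libraries, a replicate block and leaving out each library. Scaling by library totals without mitochondrial and abundant unnamed genes was chosen after seeing the data. Levels against tubule markers used log2 CPM with a prior count of 2. The analysis was tested on simulated data.

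The members and lists were chosen with earlier results of these data known. Named genes are all members, up to 3 called genes by smallest p in each group of pathway genes, and the 3 nearest profiles of each member. A few such items are not reported here. Tdo2, Ido2, Slc34a1, Lrp2, Adgre1 and C1qa are named outside that rule. Counts limit precision most in the shallow libraries, which hold 973812 to 1659983 counts each.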

Additional observations from a re-analysis of the deposited data

Results flagged for a closer look

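In 4 of the 40 sets of 4 libraries (10 enzymes in 4 groups), 1 library stood far from the other 3 by Dixon's test at the 95% level, where chance gives about 1 in 20 such sets. Acmsd in NP replicate 3, at 82.6 CPM, was the lowest of its group, with the others at 124.2 to 126.5. Nampt in NP replicate 2, at 192.7 CPM, was the highest, with the others at 161.4 to 166.3. Afmid in IRV replicate 1, at 16.4 CPM, was the lowest, with the others at 25.5 to 27.1. Qprt in IRP replicate 2, at 27.2 CPM, was the highest, with the others at 20.3 to 20.9. IRP replicate 2 was also the highest of its group for 9 of the 10 enzymes.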

How the results depend on the processing

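Scaling, filter and depth range decided the number of enzymes called lower after injury. Against 6 in each comparison, library totals alone gave 1 in IRV against NV and 0 in IRP against NP, and no filter on low counts also gave 1 and 0. Totals without mitochondrial and abundant unnamed genes, chosen after seeing the data, gave 5 and 3, and the depth range as a covariate gave 4 and 0. Leaving out each library gave 5 to 6 in IRV against NV and 3 to 8 in IRP against NP, where the 3 came without IRP replicate 1. It gave 0 in the other comparisons and the interaction. Size factors of DESeq2, DESeq2 and limma-voom gave 6 and 6, and upper quartile scaling 6 and 7. The shares of all genes called in these settings are not given here, so the changes in number are not shown to be particular to the enzymes.

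Only enzymes that were not called changed direction. Under library totals Qprt was at 0.17 and Naprt at 0.23 in IRV against NV, and Qprt at 0.22 and Nadsyn1 at 0.36 in IRP against NP. Without the filter Naprt was at 0.028 in IRV against NV, and Qprt at 0.081 and Nadsyn1 at 0.24 in IRP against NP. In IRP against NP, Nadsyn1 was at 0.0059 under the added totals, and Naprt at -0.024 under upper quartile scaling and -0.74 with the depth range. Leaving out each library gave -0.13 to 0.17 for Naprt and -0.45 to 0.12 for Nadsyn1 there. Causes were not tested. The 6 called enzymes were negative in every setting of both injury comparisons.

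The replicate block gave 6 and 5 calls, Kynu in IRP against NP being lost (edgeR adjusted p = 0.055). Same-numbered libraries correlated at -0.23 to 0.26 over 24 pairs (median 0.01), and others at -0.36 to 0.33 over 72 (median 0.0022), so a pairing of libraries by number was not shown. IRP against NP could not be run within a depth range. Low counts limit Kynu, Naprt and Nadsyn1 most.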
